A study of Mus musculus with 23 samples.

Results

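The 10 genes described here encode surface proteins of leukocytes, most of them known as inhibitory receptors or their ligands: the sialic acid-binding lectins Siglec1, Siglece, Cd33 and Cd22, and the checkpoint molecules Pdcd1 (PD-1), Cd274 (PD-L1), Havcr2 (TIM-3), Lag3, Vsir (VISTA) and Sirpa. They were taken by symbol as 10 of the 33280 genes in the count table and followed through all 23 libraries. The libraries came from Ccr2creERT2/+ R26tdT/tdT mice, in which tamoxifen switches on the red protein tdTomato (tdT) in cells that use the Ccr2 gene, mainly monocytes, and leaves the descendants of those cells labelled. The mice were 10 ± 3 weeks old at the first gavage and received either BLZ945 at 200 mg/kg, an inhibitor of the CSF1 receptor that depletes brain macrophages, or vehicle (CTL) for 7 days. All of them, controls included, were given tamoxifen at 2 mg/day on 3 days around the end of the gavage and a stroke 8 weeks later, by thrombin injected into the middle cerebral artery, and brains were taken 1 day after it. Sorted from a coronal slice without choroid plexus were microglia (MG, CD45int CD11b+ CD206-) and subdural CNS-associated macrophages (sdCAMs, CD45int CD11b+ CD206int-high), the latter split by tdT. The study's methods also describe the sorted cells as negative for Ly6C, Ly6G and CD11c. This gave 5 MG CTL, 5 MG BLZ945, 5 tdT- CTL, 5 tdT- BLZ945 and 3 tdT+ BLZ945 libraries. A replicate label (F1, F2, F3, M1 or M2) marks 1 animal or pool within a treatment, so MG and sdCAM libraries with the same label share it, whereas the same label in the other treatment is another animal. The library names give 1 animal per CTL library and 2 per BLZ945 library except F2, which has 1, and the same animal number occurs in the BLZ945 names F2 and M1. Pooling therefore went with the treatment in all libraries but F2, and its part in the treatment differences was not tested. No mice without stroke were analysed here, and tdT- cells can include monocyte descendants that the tamoxifen missed.

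Siglecs bind sialic acids on glycoproteins and glycolipids, and many of them carry immunoreceptor tyrosine-based inhibitory motifs in their tails that recruit the phosphatases SHP-1 (Ptpn6) and SHP-2 (Ptpn11). Siglec1 (CD169, sialoadhesin) lacks such motifs and serves adhesion and particle capture on tissue macrophages. Checkpoint receptors are best known from exhausted T cells, but microglia and other macrophages use several of them, and SIRPα on phagocytes reads the "don't eat me" protein CD47.

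Of the 10 genes, 7 had an entry among RefSeq promoters (build GRCm38.p6), which run from 250 bases before to 50 after a start site. The 250 upstream bases are shown for Pdcd1, the gene with the treatment difference described below, and for Havcr2, the only one of the 7 windows in which a searched motif was found. Both strands of each 300-base window were searched for an AP-1 pattern (TGANTCA), a GAS pattern (TTCNNNGAA), a PU.1 pattern (GAGGAAGT) and the interferon-stimulated response element, a set chosen after the values were seen. Capitals mark matches.
Pdcd1, chr1:94052554-94052803, minus strand: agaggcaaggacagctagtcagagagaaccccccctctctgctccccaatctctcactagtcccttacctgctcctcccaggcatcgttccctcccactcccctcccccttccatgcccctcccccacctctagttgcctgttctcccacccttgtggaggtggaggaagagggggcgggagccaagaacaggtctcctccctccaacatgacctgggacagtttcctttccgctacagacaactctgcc
Havcr2, chr11:46454681-46454930, plus strand: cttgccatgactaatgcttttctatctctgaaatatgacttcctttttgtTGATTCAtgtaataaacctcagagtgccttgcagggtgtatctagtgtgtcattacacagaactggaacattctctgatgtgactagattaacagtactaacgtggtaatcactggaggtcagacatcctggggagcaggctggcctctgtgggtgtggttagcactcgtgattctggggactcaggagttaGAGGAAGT
The Havcr2 window held the AP-1 pattern from position -200 and the PU.1 pattern from position -8 relative to the start site, and the 2 patterns did not overlap. AP-1 is the dimer of FOS and JUN proteins, and PU.1 is the myeloid transcription factor encoded by Spi1. Among 32851 promoter windows of this length, 7.81% held the AP-1 pattern, 3.2% the PU.1 pattern, 8.3% the GAS pattern and 3.44% the interferon-stimulated response element. These matches describe letters in a window and were not tested as binding sites.

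Library totals ran from 9433960 to 13276081 counts. Levels are given as CPM, the count divided by the library total after scaling by edgeR's TMM method, and a count of 3 was worth 0.23 to 0.334 CPM, which is the limit that a count of 0 allows. The labels held against their markers: the summed level of P2ry12, Tmem119, Sall1 and Sparc was 7810 to 13300 CPM in MG and 334 to 667 CPM in sdCAM libraries, while the summed level of the sdCAM markers was 6.12 to 42.9 CPM in MG and 7310 to 12500 CPM in sdCAM libraries. Markers of other cells also differed between the populations. Sums in sdCAM against MG libraries were 36 to 108 against 4.19 to 12 CPM for neurons, 8.37 to 36.7 against 0.0845 to 0.598 CPM for fibroblasts and 31.4 to 780 against 14.2 to 23.5 CPM for dendritic cells. Astrocyte sums (9.15 to 132 against 139 to 294 CPM) and neutrophil sums (36.6 to 126 against 152 to 245 CPM) were lower. In MG these sums were mostly Slc1a3 and Csf3r, at 229 and 178 CPM in MG CTL. Gfap was called higher in sdCAMs in each comparison with MG (6.52 against 1.36 CPM in the control mice), and Aqp4 in tdT+ BLZ945. S100a8 and S100a9 averaged at most 4.58 CPM in any group. Retnlg held 692 counts in 1 tdT- BLZ945 library and 176 in 1 tdT+ library, with 0 in the others of these groups. All 3 neuron markers were called higher in sdCAMs in each of the 3 comparisons with MG, and 2 of 4 dendritic cell markers tested, Cd209a and Zbtb46, likewise. Of the others, Itgax was called lower in tdT- CTL, at 0 against 11.9 CPM in MG CTL, but was not called in the BLZ945 mice. Flt3 was not called. The dendritic cell sum was mostly Cd209a, which averaged 441 CPM in tdT- CTL. The part of these cells in the differences between sdCAMs and MG was not tested. Several libraries stood apart. By monocyte markers it was tdT- BLZ945 F1, with a sum of 228 CPM against 0 to 100 CPM in the other sdCAM libraries, and with the highest T cell marker sum, 7.72 CPM. By the chi-square between the counts of 2 libraries, per gene, they were MG CTL M2 (48.4 to 68.7 from the other MG CTL libraries, which lay 15.7 to 25.3 apart), MG BLZ945 F2 (32.8 to 59, against 16.8 to 30.3 between the others) and tdT- BLZ945 F2 (91 to 128, against 36.8 to 71.5). By markers of brain and vessel cells it was tdT+ BLZ945 F3, with the highest oligodendrocyte, neuron and endothelial sums of all libraries, the last at 37.1 CPM. Each call on the 10 genes was repeated without each library in turn, whereas calls on other genes were not.

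Per kilobase of exon, Sirpa was the most abundant of the 10 in MG BLZ945, with 304 ± 16.3 CPM per kb (mean ± SD, n = 5), followed by Vsir and then by Havcr2 with 171 ± 17.8 CPM per kb. Siglec1 was the least abundant there, at 0.561 ± 0.497 CPM per kb. In tdT- BLZ945 the first 3 were Sirpa at 109 ± 21.5, Siglece at 104 ± 16.9 and Vsir at 101 ± 23.8 CPM per kb, which did not differ beyond their spread. Siglec1 stood there at 29.9 ± 6.04 CPM per kb, and Pdcd1 came last at 0.363 ± 0.812 CPM per kb. The control groups had the same leading genes, Sirpa and Vsir in MG and Sirpa, Siglece and Vsir in tdT- sdCAMs. The 10 genes thus covered a wide range of levels in both populations, and their order differed between them.

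**Figure D1:**
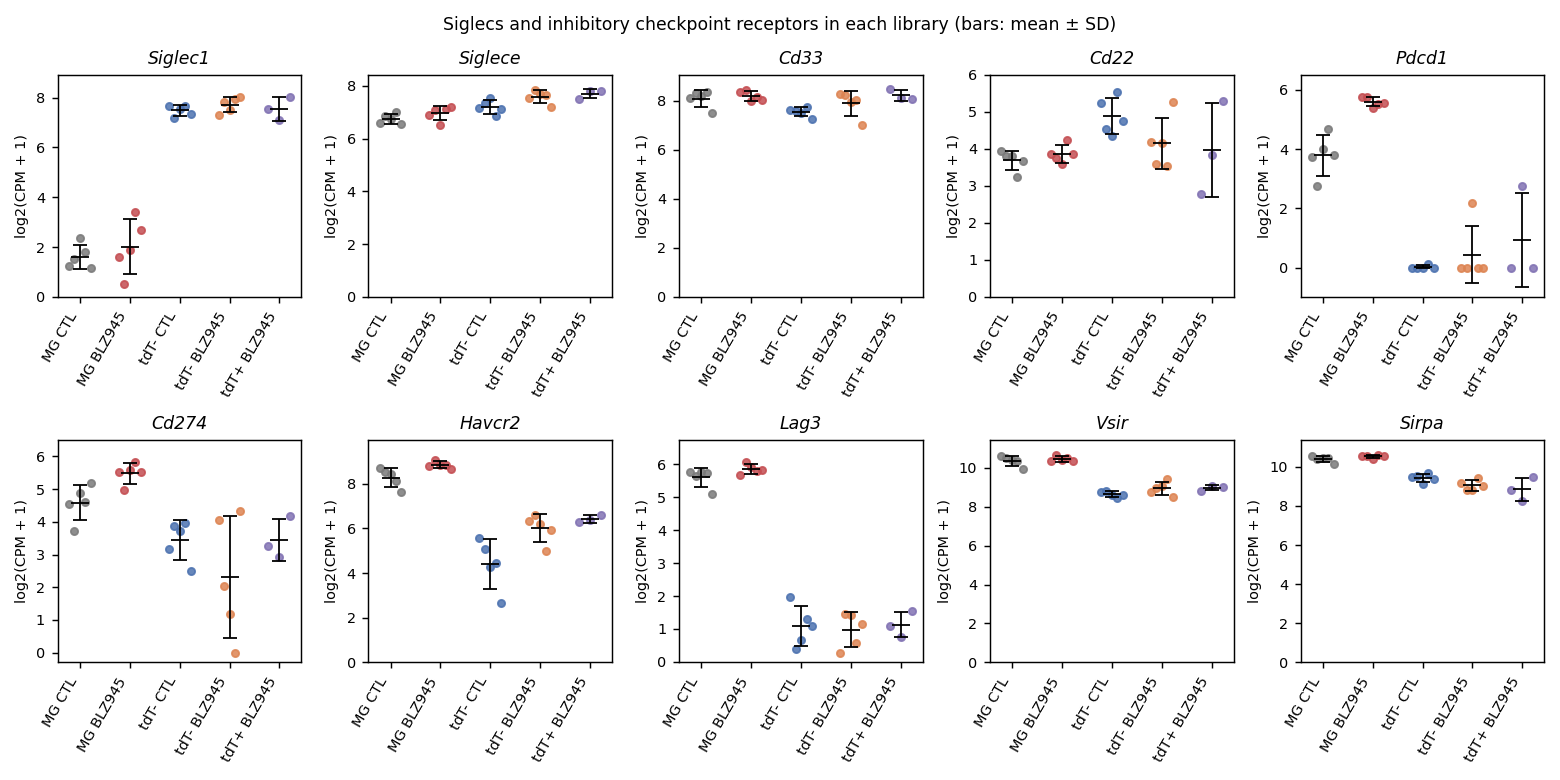
Level of each of the 10 genes, as log2(CPM + 1), in every library of the 5 groups; points are libraries and bars give mean ± SD. Siglec1 is low in both MG groups and high in all 3 sdCAM groups, whereas Pdcd1, Havcr2, Lag3, Vsir and Sirpa are high in MG.

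The first comparison asked how sdCAMs and MG from the same control stroke brains differed in these receptors. Of the 10 genes, 3 were higher in tdT- CTL than in MG CTL (Siglec1, Siglece, Cd22), 6 were lower (Cd33, Pdcd1, Havcr2, Lag3, Vsir, Sirpa) and Cd274 was not called, at an adjusted p under 0.05 by edgeR's quasi-likelihood test over all genes tested. Over all 12697 genes tested, 25.6% were called, with a median log2 fold change of -0.01, beside a median of -1.06 for the 10. CPM ranges did not overlap for 7 of the 10, against 26.8% of all genes. In bulk libraries, fewer cells that use a gene and less RNA per cell cannot be told apart.

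Siglec1 differed most in the upward direction. Its level in MG CTL was 1.38, 1.84, 4.10, 2.48 and 1.23 CPM in F1, F2, F3, M1 and M2. In tdT- CTL it was 203, 144, 185, 204 and 163 CPM in the same animals. Every sdCAM library was above every MG library, and the log2 fold change was 6.35 ± 0.50 (SE, n = 5 against 5), with an adjusted p of 1.88e-09 by edgeR. After BLZ945, Siglec1 had 0.419 to 9.48 CPM in MG against 156, 225, 182, 245 and 259 CPM in tdT- sdCAMs. The 3 tdT+ libraries F2, F3 and M2 had 183, 134 and 262.55 CPM. The log2 fold change over MG BLZ945 was 5.74 ± 0.48 for tdT- and 5.59 ± 0.49 for tdT+ sdCAMs (adjusted p = 4.93e-09 and 4.34e-09 by edgeR), and these 2 comparisons share the MG BLZ945 libraries. The ranges of tdT+ and tdT- sdCAMs overlapped.

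Siglece encodes Siglec-E, an inhibitory receptor of mouse myeloid cells. It had 94.5, 114, 107, 127 and 93.7 CPM in MG CTL, and 140, 163, 187, 115 and 140 CPM in tdT- CTL. It was higher in the sdCAMs of 4 of 5 animals, all but M1, with a log2 fold change of 0.48 ± 0.15 (adjusted p = 0.0239 by edgeR). That call was lost with library totals in place of scaled ones (0.36, adjusted p = 0.0925) and in 4 of 10 fits that left out 1 library (MG CTL F1 or M2, tdT- CTL F2 or F3). The difference from MG BLZ945 was 0.63 ± 0.15 for tdT- BLZ945 (adjusted p = 0.00343) and 0.74 ± 0.17 for tdT+ BLZ945 (adjusted p = 0.00275), and both were called in every fit that left out a library.

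Cd33 (Siglec-3), the other myeloid Siglec, moved the opposite way in the control mice. It had a mean of 279 ± 57.2 CPM in MG CTL and 188 ± 22.9 CPM in tdT- CTL, and was lower in the sdCAMs of 5 of 5 animals, with a log2 fold change of -0.56 ± 0.19 (adjusted p = 0.0337 by edgeR). The ranges overlapped through MG CTL M2, at 183 CPM, and the call was lost in 7 of 10 fits that left out 1 library: MG CTL F1, F2, F3 or M1, or tdT- CTL F2, F3 or M2. After BLZ945 Cd33 was not called, with 294 ± 39.7 CPM in MG, 250 ± 72.7 CPM in tdT- and 302 ± 49.3 CPM in tdT+ sdCAMs. Within pools it was lower than in MG in 5 of 5 tdT- libraries and higher than in MG in 3 of 3 tdT+ libraries.

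Cd22 (Siglec-2) is best known as an inhibitory co-receptor of B cells. It had 8.45 to 14.2 CPM in MG CTL and 36.6, 22.3, 19.5, 45.0 and 25.8 CPM in tdT- CTL, so that the 2 groups did not overlap and the log2 fold change was 1.32 ± 0.33 (adjusted p = 0.00419 by edgeR). The B cell gene Ms4a1 had 0 to 23 counts per library. Ighm, which makes up most of the B cell marker sum, was at 345 ± 76.2 CPM in MG CTL and 236 ± 55.7 CPM in tdT- CTL. Cd79b, another B cell marker, averaged 37.9 CPM in MG CTL and 28.8 CPM in tdT- CTL. It averaged 7.57, 4.32 and 31.4 CPM in MG, tdT- and tdT+ BLZ945. The part of B cells in the Cd22 values was not tested. In the BLZ945 mice Cd22 overlapped between MG (11 to 17.8 CPM), tdT- (10.6 to 37.3 CPM) and tdT+ sdCAMs (5.84 to 38.4 CPM) and was not called. Library M2 held the highest Cd22 in both sdCAM groups of the BLZ945 mice.

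Pdcd1 showed the widest gap of the checkpoint genes. MG CTL libraries F1, F2, F3, M1 and M2 held 134, 66, 175, 289 and 169 counts. Of the 5 tdT- CTL libraries, 4 held 0 counts and M1 held 1 count. BLZ945 MG libraries held 527, 640, 483, 511 and 546 counts, 4 of 5 tdT- libraries held 0 counts and tdT- F3 held 39 counts. Of the 3 tdT+ libraries, F2 and M2 held 0 counts and F3 held 58 counts. Both sdCAM libraries with more than 1 count thus came from the same pool, F3. Scaled for library size, the summed counts of MG CTL were 853 times those of tdT- CTL, with an exact 95% interval of 153 to 33700 that covers counting error only.

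The fitted log2 fold changes of Pdcd1 rest on these near-zero counts and are no bounds. They were -8.99 ± 1.28 for tdT- CTL against MG CTL (adjusted p = 1.19e-05), -5.99 ± 0.94 for tdT- BLZ945 against MG BLZ945 (adjusted p = 3.83e-05) and -4.64 ± 1.37 for tdT+ BLZ945 against MG BLZ945 (adjusted p = 0.0150), all by edgeR. Without F3 of the sdCAM group the fits gave -12.06 (adjusted p = 2.27e-09) and -12.06 (adjusted p = 0.000549) for the last 2. The tdT+ call was lost without tdT+ F2 (adjusted p = 0.0524), under DESeq2 (0.05, not below it) and with the BLZ945 libraries alone (0.0700). In the MG libraries, which held 66 to 640 counts of Pdcd1, the T cell genes Cd3e and Cd3d were at 0 to 4 and 0 to 18 counts, and the whole T cell marker list summed to 0.0875 to 1.95 CPM. In the pool F3 it summed to 0 CPM in tdT- and 1.29 CPM in tdT+ sdCAMs, and that tdT+ library had oligodendrocyte and neuron marker sums of 245 and 108 CPM. The part of other cells in these values was not tested.

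Lag3, a receptor for MHC class II on T cells that is also carried by microglia, had 52.9, 49.0, 53.7, 51.7 and 33.3 CPM in MG CTL. In tdT- CTL it had 2.95, 0.309, 0.592, 1.47 and 1.13 CPM, or 4 to 35 counts. The log2 fold change was -5.20 ± 0.48 (adjusted p = 2.32e-08 by edgeR). MG BLZ945 libraries had 49.98 to 66.0 CPM, tdT- BLZ945 0.214 to 1.73 CPM and tdT+ BLZ945 0.693 to 1.91 CPM, with log2 fold changes of -5.71 ± 0.50 and -5.50 ± 0.63 (adjusted p = 9.27e-09 and 4.03e-07). No sdCAM library reached an MG library in any of the 3 comparisons.

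Havcr2 encodes TIM-3, whose ligands include galectin-9 (Lgals9). It had 415, 366, 347, 280 and 198 CPM in MG CTL against 46.3, 33.3, 18.6, 20.9 and 5.27 CPM in tdT- CTL. In MG BLZ945 it had 452, 544, 460, 464 and 411 CPM. In tdT- BLZ945 it had 80.9, 94.9, 71.5, 30.7 and 61.0 CPM, and 76.9, 83.5 and 96.1 CPM in tdT+ F2, F3 and M2. The groups did not overlap, and sdCAMs were lower than MG by log2 fold changes of -3.68 ± 0.39, -2.77 ± 0.38 and -2.45 ± 0.43 for tdT- CTL, tdT- BLZ945 and tdT+ BLZ945 (adjusted p = 2.20e-07, 6.04e-06 and 0.000165 by edgeR).

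Vsir and Sirpa were abundant in both populations and lower in sdCAMs in every comparison. Vsir, an inhibitory molecule of myeloid and T cells, had 1336 ± 218 CPM in MG CTL and 402 ± 42.1 CPM in tdT- CTL, a log2 fold change of -1.72 ± 0.15 (adjusted p = 1.07e-08 by edgeR). It had 1421 ± 143 CPM in MG BLZ945 against 506 ± 119 CPM in tdT- and 503 ± 45.3 CPM in tdT+ sdCAMs (log2 fold changes -1.48 ± 0.15 and -1.50 ± 0.18, adjusted p = 9.56e-08 and 5.30e-07). Sirpa had 1501, 1340, 1380, 1384 and 1132 CPM in MG CTL and 706, 731, 563, 837 and 672 CPM in tdT- CTL, so that the sdCAM level was 52.1% of the MG level (log2 fold change -0.93 ± 0.13, adjusted p = 7.47e-06). In the BLZ945 mice the share was 35.9% in tdT- and 32.7% in tdT+ sdCAMs (log2 fold changes -1.47 ± 0.13 and -1.61 ± 0.20, adjusted p = 1.22e-08 and 1.60e-06). The near-identical relatives Sirpb1a, Sirpb1b and Sirpb1c averaged at most 4.01 CPM in any group, against a mean Sirpa level of 488 to 1491 CPM, and whether reads that fit more than 1 place were counted is not given in the sources used here.

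Cd274, the ligand of PD-1, was the only one of the 10 not called in the control mice: 24.3 ± 8.49 CPM in MG CTL and 10.7 ± 4.16 CPM in tdT- CTL overlapped (log2 fold change -1.18 ± 0.69, adjusted p = 0.241 by edgeR), although it was lower in the sdCAMs of 4 of 5 animals. MG BLZ945 had 44.6, 30.5, 46.6, 55.8 and 44.6 CPM of Cd274 against 15.8, 3.14, 1.26, 0 and 19.3 CPM in tdT- sdCAMs. All 5 sdCAM libraries were below all 5 MG libraries, with a log2 fold change of -2.49 ± 0.72 (adjusted p = 0.0107). The 3 tdT+ libraries, with 8.61, 6.53 and 16.9 CPM, were also below every MG library, but the adjusted p was 0.0774 (log2 fold change -2.05 ± 0.84), and 0.0341 under DESeq2.

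Counted together, 8 of the 10 genes were called between tdT- BLZ945 and MG BLZ945, 2 higher and 6 lower, beside 32.4% of all 12697 genes. CPM ranges did not overlap for 7 of the 10, against 22% of all genes. Between tdT+ BLZ945 and MG BLZ945, 7 of the 10 were called, 2 higher and 5 lower, beside 25.2% of 13790 genes, and ranges did not overlap for 8, against 33.1%. The medians of the 10 were -1.47 and -1.56 on the log2 scale, beside -0.02 and -0.01 for all genes.

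**Figure D2:**
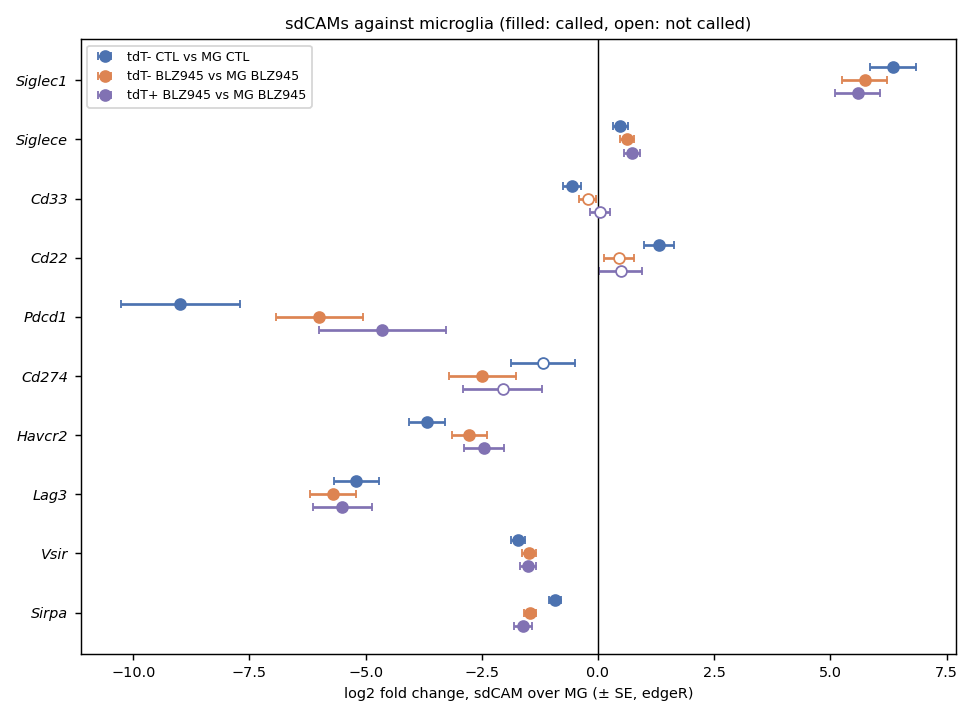
log2 fold change ± SE of each gene in sdCAMs over MG (edgeR) in the control mice and, for tdT- and tdT+ sdCAMs, in the BLZ945 mice; filled points were called and open points were not. Siglec1 lies between 5.59 and 6.35, Lag3 between -5.71 and -5.20, and Siglece between 0.48 and 0.74.

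The sdCAM level as a percent of the MG level shows how these genes compared with genes that mark microglia. The 4 microglia markers stood at 1.87 to 8.4% of their MG CTL level in tdT- CTL, at 0.768 to 8.01% in tdT- BLZ945 and at 0.92 to 6.79% in tdT+ BLZ945. Lag3 lay inside that range in all 3 groups (2.68%, 1.88% and 2.19%). Pdcd1 lay below it in tdT- CTL, at 0.11%, which rests on 1 count, and inside it in tdT- and tdT+ BLZ945, at 1.47% and 4.0%, which rest on the pool F3. Havcr2 lay inside it in tdT- CTL, at 7.74%, and above it in tdT- and tdT+ BLZ945, at 14.5% and 18.3%. Vsir (30.1 to 35.6%), Sirpa (32.7 to 52.1%) and Cd274 (17.8 to 43.8%) lay above it throughout. Whether microglial RNA in the sdCAM libraries adds to the low values was not tested.

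**Figure D3:**
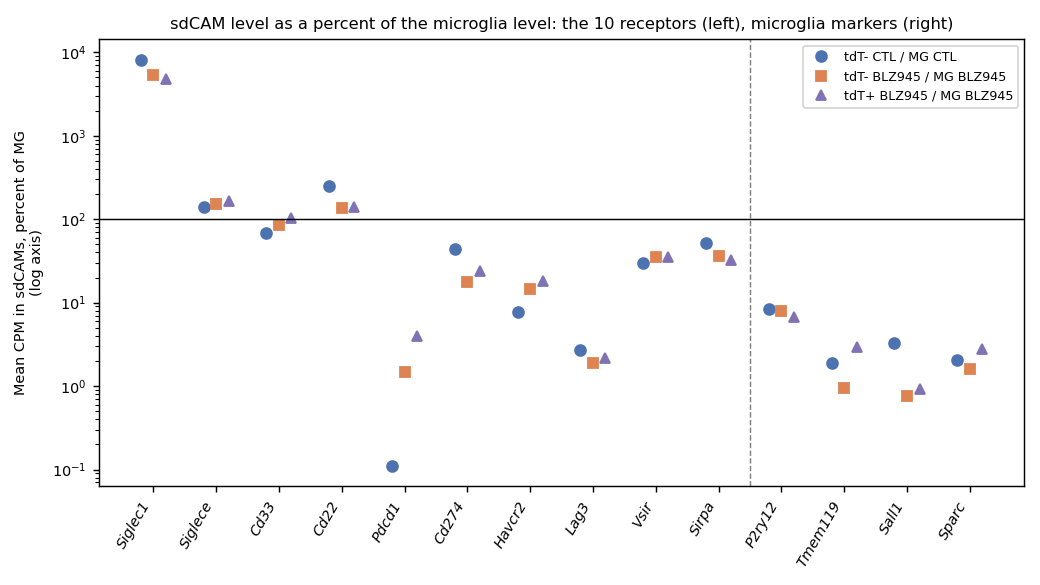
Mean CPM in sdCAMs as a percent of mean CPM in MG of the same treatment, on a log axis, for the 10 genes and 4 microglia markers; the horizontal line is 100%. Siglec1 stands at 4820 to 8160%, while Lag3 lies among the microglia markers and Pdcd1 in tdT- CTL at 0.11%.

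The next comparison asked whether microglia that had repopulated the brain after BLZ945 differed from control microglia in these receptors. Pdcd1 was the only one of the 10 to pass the test, beside 0.408% of 11264 genes called. It had 12.3, 5.78, 15.0, 24.7 and 12.9 CPM in MG CTL F1, F2, F3, M1 and M2. In MG BLZ945 it had 52.9, 53.6, 41.2, 45.3 and 46.2 CPM. Every BLZ945 library was above every control library, which held for 3.03% of all genes, and the mean was 3.39 times the control mean. The log2 fold change was 1.75 ± 0.26 (n = 5 against 5, adjusted p = 0.00583 by edgeR), and each of the 10 fits without 1 library kept the call, with log2 fold changes of 1.55 to 2.04. MG BLZ945 F2, whose name gives 1 animal, had the highest level, 53.6 CPM, and was also among the libraries that stood apart by chi-square. The part of pooling in the Pdcd1 difference was not tested. B cell markers moved the other way in the same comparison: the list summed to a median of 374 and at most 516 CPM in MG CTL and to 188 to 300.2 CPM, with a median of 234 CPM, in MG BLZ945, the 2 overlapping through MG CTL M2 and MG BLZ945 F2, and Cd79b, a part of the B cell receptor, fell from 37.9 to 7.57 CPM (log2 fold change -2.33 ± 0.25, adjusted p = 0.000477), one of 46 genes called. In tdT- sdCAMs Cd79b was also lower after BLZ945 without overlap, at 4.32 against 28.8 CPM, but was not called (adjusted p = 0.436 by edgeR). The part of B cells in the treatment difference was not tested. In a model of all 23 libraries, whose spread includes the sdCAM libraries, the same difference (1.76 ± 0.96) was not called (adjusted p = 1.0).

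The other 9 genes were not called in microglia. Cd274 had 22.4, 12.2, 28.5, 23.4 and 35.2 CPM in MG CTL and 44.6, 30.5, 46.6, 55.8 and 44.6 CPM in MG BLZ945. The groups overlapped only through MG CTL M2 and MG BLZ945 F2, with a log2 fold change of 0.85 ± 0.23 and an adjusted p of 0.115. Without MG CTL M2 it was called (adjusted p = 0.0357), as under DESeq2 (0.0185). Havcr2 averaged 321 ± 84.1 CPM in control and 466.1 ± 48.5 CPM in BLZ945 microglia, a log2 fold change of 0.53 ± 0.16 (adjusted p = 0.156, and 0.0429 under DESeq2), with MG CTL F1 at 415 CPM above MG BLZ945 M2 at 411 CPM. These 3 genes were the ones of the 10 with an unadjusted p under 0.05, as had 1492 of all 11264 genes. The remaining 7 had log2 fold changes of 0.07 (Cd33) to 0.86 (Siglec1, with an SE of 0.62), and the median over the 10 was 0.23, beside 0.00019 for all genes. The microglia marker sum was 7810 to 13300 CPM in MG CTL and 9330 to 13100 CPM in MG BLZ945, with the lowest value, like the lowest Lag3, Vsir, Sirpa, Cd33 and Havcr2 among control microglia, in MG CTL M2.

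**Figure D4:**
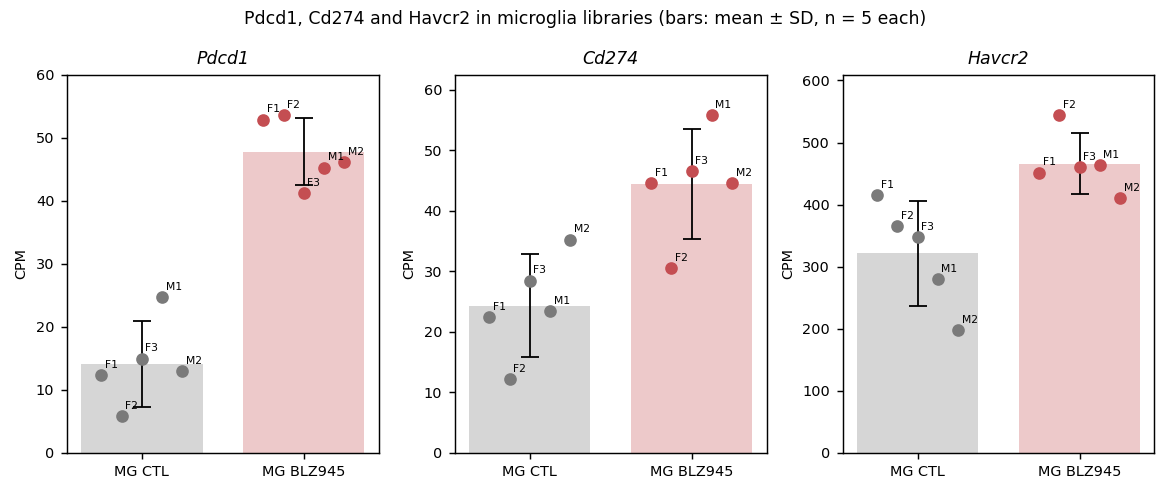
CPM of Pdcd1, Cd274 and Havcr2 in each MG library; points are libraries with their replicate labels, and bars give mean ± SD (n = 5 per group). The Pdcd1 groups do not overlap (5.78 to 24.7 against 41.2 to 53.6 CPM), whereas the other 2 genes overlap through single libraries.

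Among sdCAMs, no gene of the 9 tested was called for treatment or for the tdT label, and Pdcd1 was too low to be tested. Of all 13076 genes, 0% were called between tdT- BLZ945 and tdT- CTL, 0.206% between tdT+ and tdT- BLZ945, and 0.283% between tdT+ BLZ945 and tdT- CTL, so these comparisons made few calls on any gene. In the first, edgeR gave 697 of all genes and 3 of the 9 an unadjusted p under 0.05, and DESeq2 called none of the 9. Havcr2 averaged 24.9 ± 15.6 CPM in tdT- CTL and 67.8 ± 24.2 CPM in tdT- BLZ945, a difference that did not pass (log2 fold change 1.45 ± 0.43, adjusted p = 0.577 by edgeR), and the groups overlapped through tdT- BLZ945 M1 at 30.7 CPM. The log2 fold changes of Siglece and Vsir were 0.37 ± 0.16 and 0.34 ± 0.16 (adjusted p = 0.857 and 0.909). CPM ranges overlapped for all 9, where 1.84% of all genes did not overlap.

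The same control libraries served the comparison with tdT+ sdCAMs. Havcr2 had 76.9 to 96.1 CPM in tdT+ BLZ945 against 5.27 to 46.3 CPM in tdT- CTL, with no overlap and a log2 fold change of 1.77 ± 0.47 (adjusted p = 0.219 by edgeR). DESeq2 and the model of all 23 libraries called this difference (adjusted p = 0.0237 and 0.0234). Cd33 (268 to 358 against 154 to 217 CPM, log2 fold change 0.67 ± 0.22, adjusted p = 0.467) and Vsir (451 to 532 against 343 to 447 CPM, 0.32 ± 0.18, adjusted p = 0.771) did not overlap either, and 8.26% of all genes did not. Sirpa had a log2 fold change of -0.53 ± 0.24 (adjusted p = 0.628), with 448, 309 and 705 CPM in tdT+ F2, F3 and M2. Of the 9 genes, 4 had an unadjusted p under 0.05, as had 973 of all 13076 genes: Siglece, Cd33, Havcr2 and Sirpa.

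Between tdT+ and tdT- sdCAMs of the same BLZ945 mice, none of the 9 had an unadjusted p under 0.05, with log2 fold changes of -0.16 (Siglec1) to 0.42 (Cd274, with an SE of 1.06). Ranges overlapped for all 9, where 3.41% of all genes did not overlap. Cd33 was higher in the tdT+ library of 3 of 3 pools, and no other gene of the 9 went one way in all 3. The SE was 1.06 for Cd274 and 1.10 for Lag3, so that this comparison bounds neither of these low genes closely.

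**Figure D5:**
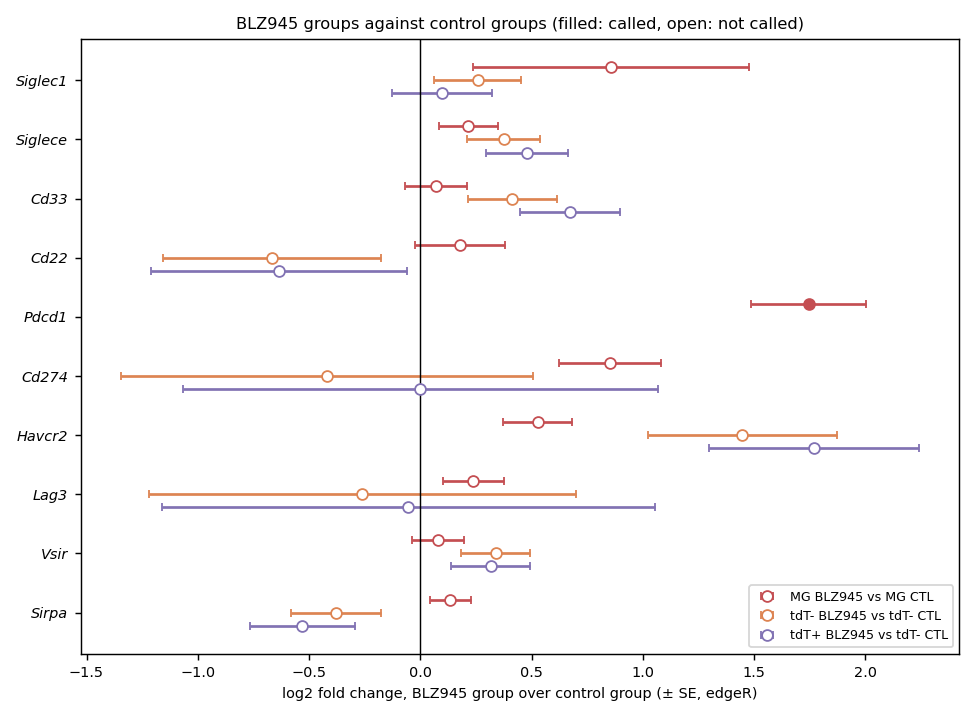
log2 fold change ± SE (edgeR) of BLZ945 groups over control groups: MG, tdT- sdCAMs, and tdT+ BLZ945 over tdT- CTL sdCAMs. The filled point, Pdcd1 in MG at 1.75, is the one called difference; open points were not called, and Pdcd1 has no point for sdCAMs because it was too low to be tested.

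An interaction term asked whether BLZ945 and control mice differed by unequal amounts in tdT- sdCAMs and in MG. It called none of the 10, beside 0.0394% of all 12697 genes. One of the 10, Sirpa, had an unadjusted p under 0.05, as had 1104 of all 12697 genes, with an interaction of -0.53 ± 0.18 on the log2 scale (adjusted p = 0.363 by edgeR). Its level was 1347 ± 135 and 1491 ± 79.9 CPM in MG CTL and MG BLZ945, and 702 ± 99.3 and 536 ± 105 CPM in tdT- CTL and tdT- BLZ945. Pdcd1 had an interaction of 2.999 ± 1.65 (adjusted p = 0.643), which turned to -3.06 without tdT- BLZ945 F3. For Havcr2 it was 0.91 ± 0.50 (adjusted p = 0.645), and for Cd274 it was -1.30 ± 0.97 (adjusted p = 0.755).

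The partners of these receptors were read from lists. Among 23 ligands and further checkpoint genes, 15 could be tested in the control mice, of which 3 were higher and 3 lower in tdT- CTL than in MG CTL (40% called, beside 25.6% of all genes). Vsig4, a complement receptor that restrains T cells, had 21.9 CPM in tdT- CTL against 0.0171 CPM in MG CTL (log2 fold change 9.61 ± 1.16, adjusted p = 4.76e-06 by edgeR). The MG CTL value is 1 count over 5 libraries, of which 4 were at 0, so that this fitted fold is no bound. Cd276 (B7-H3) had 0.718 against 24.9 CPM (-5.09 ± 1.13, adjusted p = 0.00168) and Nectin2 5.59 against 37.4 CPM (-2.73 ± 0.32, adjusted p = 6.91e-07). The second PD-1 ligand, Pdcd1lg2, averaged at most 0.3001 CPM in any group. The LAG-3 ligand Fgl1 averaged at most 0.762 CPM, the VISTA ligand Igsf11 at most 0.984 CPM, whereas the TIM-3 ligand Lgals9 averaged 314 to 467 CPM and the SIRPα ligand Cd47 194 to 448 CPM. After BLZ945 4 of 15 list genes were higher and 6 lower in tdT- sdCAMs than in MG, and 5 of 18 higher and 4 lower in tdT+ sdCAMs (66.7% and 50% called, beside 32.4% and 25.2% of all genes), among them Ceacam1, a TIM-3 partner, at 5.84 against 29.5 CPM in tdT- (-2.32 ± 0.62, adjusted p = 0.00617), and Cd200r1, the CD200 receptor, at 104 against 37.9 CPM in tdT+ (1.46 ± 0.20, adjusted p = 5.77e-06).

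Of 5 other Siglecs, 4 could be tested, and none was called higher in sdCAMs, while 3 were lower than in MG for tdT- CTL, 2 for tdT- BLZ945 and 3 for tdT+ BLZ945 (75%, 50% and 75% of the 4, beside 25.6%, 32.4% and 25.2% of all genes). Siglech, a microglial Siglec that signals through DAP12, had 191 CPM in tdT- CTL against 1696 CPM in MG CTL (log2 fold change -3.15 ± 0.27, adjusted p = 7.14e-09). Siglecf, the eosinophil Siglec, had 0.649 against 34.9 CPM (-5.73 ± 1.42, adjusted p = 0.00428), but the tdT- CTL mean rests on F1, with 35 counts (2.95 CPM), where the other 4 libraries held 0, 3, 0 and 0 counts, at most 0.296 CPM. Both were also lower in tdT+ BLZ945 than in MG BLZ945 (-2.17 ± 0.32 and -5.66 ± 1.88, adjusted p = 1.83e-05 and 0.0292), and of the 3 tdT+ libraries only M2 held counts of Siglecf, 22. The fitted folds of Siglecf rest on these near-zero counts and are no bounds. In tdT- BLZ945 Siglech was lower too (-1.91 ± 0.26, adjusted p = 5.25e-06), but Siglecf was not called (-2.76 ± 1.20, adjusted p = 0.0840), with 253 counts in F1, the library with the highest monocyte marker sum, and at most 2 counts in the other 4 libraries. Mag, the myelin Siglec of oligodendrocytes, was lower in tdT- BLZ945 than in MG BLZ945 (-1.56 ± 0.56, adjusted p = 0.0373), beside oligodendrocyte marker sums of 49.2 to 100 CPM in tdT- BLZ945 and 21.8 to 61.6 CPM in MG BLZ945.

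Other inhibitory receptors of myeloid cells differed between the populations in both directions: 6 of 12 were higher and 4 lower in tdT- CTL than in MG CTL (83.3% called, beside 25.6% of all genes). Clec12a, an inhibitory C-type lectin, had 181 against 1.80 CPM (log2 fold change 6.64 ± 0.51, adjusted p = 1.24e-09), and Pirb, a paired Ig-like receptor for MHC class I, 177 against 23.8 CPM (2.90 ± 0.18, adjusted p = 4.80e-11). Pilra had 10.4 against 72.7 CPM (-2.79 ± 0.64, adjusted p = 0.00206). In the BLZ945 mice, where 32.4% of all genes were called for tdT- and 25.2% for tdT+ sdCAMs, 7 of 12 were higher and 5 lower in tdT- sdCAMs, with Cd72 at 47.9 against 289 CPM (-2.58 ± 0.31, adjusted p = 9.46e-07), and 5 higher and 4 lower in tdT+ sdCAMs, with Clec4a2 (DCIR) at 452 against 70.8 CPM (2.67 ± 0.20, adjusted p = 4.18e-10). Cd300lf was the 1 of 12 called between MG BLZ945 and MG CTL (8.33%, beside 0.408% of all genes), at 70.9 against 20.8 CPM (1.76 ± 0.23, adjusted p = 0.00217), with no overlap and a log2 fold change close to that of Pdcd1.

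Of 9 genes that carry the receptors' signals, 2 were lower and none higher in tdT- CTL than in MG CTL, a share of 22.2% that did not exceed the 25.6% of all genes: Inpp5d (the phosphatase SHIP-1) at 166 against 367 CPM (log2 fold change -1.14 ± 0.18, adjusted p = 5.58e-05), and the Src family kinase Lyn (-0.79 ± 0.13, adjusted p = 7.14e-05). The same counts, 2 lower and none higher, were found between tdT- BLZ945 and MG BLZ945, where 32.4% of all genes were called. In tdT+ BLZ945 2 were lower and 1 was higher (33.3%, beside 25.2% of all genes). The latter was Hcst (the adaptor DAP10), at 57.5 against 23.1 CPM (1.32 ± 0.37, adjusted p = 0.0115). Ptpn6, the SHP-1 phosphatase, averaged 398 to 467 CPM over the 5 groups.

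Of 19 genes that make, attach or trim sialic acids, 18 could be tested between sdCAMs and MG, with 5 higher and 4 lower in tdT- CTL, 6 and 6 in tdT- BLZ945, and 5 and 4 in tdT+ BLZ945. These are 50%, 66.7% and 50% of the list, beside 25.6%, 32.4% and 25.2% of all genes. Cmah, whose enzyme turns N-acetylneuraminic into N-glycolylneuraminic acid, had 23.03 CPM in tdT- CTL against 0.0858 CPM in MG CTL (log2 fold change 7.91 ± 0.69, adjusted p = 7.21e-08), where the 5 MG CTL libraries held 5 counts in all and the fitted fold is no bound. It averaged 29.4 and 14.0 CPM in tdT- and tdT+ BLZ945, and all MG BLZ945 libraries were at 0. St3gal5, the GM3 ganglioside synthase, had 6.02 against 246 CPM (-5.34 ± 0.54, adjusted p = 8.71e-08), and St8sia4, a polysialyltransferase, 124 against 9.58 CPM (3.70 ± 0.37, adjusted p = 7.44e-08). Thus the enzymes of this list, like the Siglecs, included genes far higher and far lower in sdCAMs.

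Interferon-stimulated genes were included because Siglec1 and Cd274 are known to respond to interferon. In the control mice 4 of 9 were higher in tdT- sdCAMs than in MG and 1 was lower, or 55.6% beside 25.6% of all genes: Oasl2 at 163 against 20.8 CPM (log2 fold change 2.98 ± 0.35, adjusted p = 9.62e-07), Irf7 at 142 against 33.3 CPM (2.10 ± 0.34, adjusted p = 6.45e-05), and Cxcl10 at 20.2 against 171 CPM (-3.07 ± 0.51, adjusted p = 7.36e-05). In the BLZ945 mice 1 was higher and 1 lower, in tdT- and in tdT+ sdCAMs, a share of 22.2% that was below the 32.4% and 25.2% of all genes. Between MG BLZ945 and MG CTL none of the 9 was called, 6 had an unadjusted p under 0.05, as had 1492 of all 11264 genes, and the median was 0.77 on the log2 scale. In the comparisons among sdCAMs no gene of any of these 6 lists was called.

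Across the 23 libraries, the genes whose log2(CPM + 1) ran most like each receptor were named by Pearson's r among 8344 genes, as a description over points that share animals and, above all, differ by cell type. For Siglec1 they were Mndal, Folr2 and Plxnd1 (r = 0.981 to 0.985), for Lag3 they included Atp6v0a2 and Adgrg1 (0.977 to 0.981), for Vsir Lpcat2, Itgb5 and Klk8 (0.969 to 0.977), and for Sirpa Daglb, Fmnl3 and Spns2 (0.949 to 0.961). For Havcr2 they were Bcl2a1a, Abi3 and Spsb1 (0.941 to 0.961), and for Pdcd1, which also differed between the MG groups, they included Chst1 and Ak1 (0.944 to 0.946). The closest genes to Cd274 were Myo1e, Pinx1 and Sncaip (0.847 to 0.894), to Siglece Ttc39c, Cpq and Jaml (0.848 to 0.859), to Cd33 Rnf167, Atg5 and Zc3h8 (0.828 to 0.869), and to Cd22 Grb2, Rragc and Osbpl8 (0.763 to 0.805). Among the receptors themselves, Siglec1 and Lag3 ran opposite (r = -0.96), and Lag3 and Vsir ran together (r = 0.95), while Cd33 had its closest relation, of opposite sign, with Cd22 (r = -0.645).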

How the data were processed

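RNA of about 500 pg per sorted population was turned into SMART-Seq libraries. The authors deposited counts per gene symbol, for which the submitters' processing notes list bcl2fastq 2.20, STAR 2.7.11a, featureCounts 2.0.6 and DESeq2 1.46.0. The study's methods give a later featureCounts version, and which of them made these counts was not settled. The methods name mm10 and GRCm39 as builds for bulk RNA-seq without saying which served these counts, and the handling of strand and of reads with several matches is not given in the sources used here. Of 33280 genes, 9482 were at 0 in all 23 libraries. Samples were grouped by their titles.

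Counts were tested with edgeR 4.0.16 (R 4.3.3): TMM scaling, the filterByExpr filter, a quasi-likelihood fit and Benjamini-Hochberg adjustment over all genes tested, with calls at an adjusted p under 0.05. Comparisons between sdCAMs and MG used both populations, and comparisons within a population used that population alone. Summaries and intervals used Python 3.11.15, numpy 2.4.6 and scipy 1.17.1. The tests were checked on simulated data. MG and sdCAM libraries with the same label come from the same animal or pool, and their deviations from the group means correlated weakly (mean r = 0.0689 to 0.13 over the pairs of groups). No 2 libraries of a group agreed within sampling noise. Alternatives were DESeq2 1.42.0, RLE size factors, library totals alone, a lenient filter, a replicate block, other sets of libraries and leaving out each library. Per list and comparison, at most 3 called genes with the largest log2 fold change, no overlap of CPM and a mean log2 CPM of at least 1 could be named, and partner genes quoted for their level alone were picked as known ligands or effectors after their values were seen. Likeness, 3 genes per member, was taken over genes averaging at least 10 CPM on log2(CPM + 1). The members and lists were chosen with earlier results of these data known. Intervals and floors cover counting error only. Some marker, list and likeness genes are not reported here, and counts and sums over the lists leave them out.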

Additional observations from a re-analysis of the deposited data

Results flagged for a closer look

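Among 39 groups of values of the 10 genes with 5 libraries each, 3 held a library far from the other 4 (gap over range above 0.71), where chance gives about 1 in 20 groups. Cd22 was at 37.3 CPM in tdT- BLZ945 M2 against 10.6 to 17.1 CPM in the other 4 libraries, and tdT+ M2 of the same pool was also the highest of its group, at 38.4 CPM. Pdcd1 was at 3.50 CPM in tdT- BLZ945 F3, where the other 4 libraries were at 0. Lag3 was at 33.3 CPM in MG CTL M2 against 49.0 to 53.7 CPM in the other 4, and that library also had the lowest microglia marker sum of MG, 7810 CPM. What set these libraries apart was not tested.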

How the results depend on the processing

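Over settings other than leaving out a library, 146 of 150 repeats of called differences of the 10 genes kept direction and call and 4 lost the call, while 9 of 312 repeats of uncalled differences changed sign and 7 became called. Over fits without 1 library, 224 of 236 repeats of called differences of the 10 genes held and 12 lost the call, and 27 of 578 uncalled ones changed sign. Between MG BLZ945 and MG CTL, 1 of the 10 genes was called, against 3 under DESeq2, 3 with a replicate block, 0 in the model of all libraries and 1 to 2 without 1 library (2 without MG CTL M2). Between tdT+ BLZ945 and tdT- CTL, 0 were called, against 1 under DESeq2 and 1 in the model of all libraries. The replicate block pairs libraries of the same animal or pool between MG and sdCAMs and changed no call of the 10 there, though Pdcd1 moved to -8.48 for tdT+ BLZ945 against MG BLZ945. Between treatments it joins different animals that share only a number, and it gave Cd274 0.91 and Havcr2 0.57 in MG (adjusted p = 0.0221 and 0.0489, edgeR). Library totals alone moved the median of all genes by -0.122, -0.156 and -0.118 on the log2 scale in the 3 comparisons of sdCAMs with MG. The cause of these changes was not tested.

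Uncalled log2 differences that changed sign were small or poorly bounded. With library totals alone, Cd33 was -0.084 (tdT+ against MG BLZ945), Vsir 0.023 (tdT+ against tdT- BLZ945) and Cd274 -0.020 (tdT+ against tdT- CTL), and with the lenient filter the last was -0.026. With the replicate block, Cd22, Lag3 and Vsir were -0.42, -0.43 and 0.10 between tdT+ and tdT- BLZ945, and Cd274 and Lag3 were -0.53 and 0.041 between tdT+ BLZ945 and tdT- CTL. Without 1 library, Cd33 ran from -0.11 to 0.11 and Cd22 from -0.52 to 0.91 for tdT+ against MG BLZ945, Cd33 from -0.046 to 0.13 and Vsir from -0.011 to 0.14 between the MG groups, and Lag3 from -0.51 to 0.30 for tdT- BLZ945 against tdT- CTL. For tdT+ against tdT- BLZ945 the ranges were -0.44 to 0.057 for Siglec1, -0.97 to 0.47 for Cd22, -0.066 to 1.08 for Cd274, -0.22 to 0.50 for Lag3, -0.11 to 0.11 for Vsir and -0.51 to 0.10 for Sirpa. For tdT+ BLZ945 against tdT- CTL they were -0.19 to 0.30 for Siglec1, -0.50 to 0.25 for Cd274 and -0.49 to 0.50 for Lag3. The interaction ran from -3.06 to 4.30 for Pdcd1 and from -0.76 to 0.049 for Lag3. Depth limits Pdcd1 and Lag3 in sdCAMs, where counts were 0 to 58 and 2 to 35.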
